A study of Mus musculus with 12 samples.

Results

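Brain glycogen is a branched store of glucose that is kept mainly in astrocytes. Glycogen synthase lengthens its chains, the branching enzyme adds branch points, and glycogen phosphorylase releases glucose units from the chain ends. Phosphorylase kinase, a complex of alpha, beta and gamma subunits with calmodulin as its calcium sensor, switches phosphorylase on, whereas protein phosphatase 1, brought to glycogen by targeting subunits, switches phosphorylase off and synthase on.

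Of this pathway, 9 genes with Phka1 among them were examined in the septum of lactating and virgin mice. They were the phosphorylase kinase subunits Phka1, Phka2, Phkb and Phkg1, the phosphorylases Pygb and Pygm, the synthase Gys1, the branching enzyme Gbe1 and the phosphatase targeting subunit Ppp1r3c. Each of the 9 genes was matched by its symbol to 1 transcript cluster, the array's unit for a gene, so that 9 of 35556 clusters were members, and 21789 of those clusters carry a single gene symbol. The genes were selected on the lactating against virgin difference of these same arrays. Their differences between the groups are therefore given as a description with no test, and nothing rests on them.

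The septum is a forebrain region linked to maternal care. RNA was taken from 6 lactating females on postpartum days 6 to 8 and from 6 virgin females of the same age, about 70 days, and each mouse gave 1 array. All mice came from 1 line bred for high maternal aggression out of outbred hsd:ICR stock. Lactating females had been housed with a breeder male and virgin females with other females, and both were then kept alone. The virgin mice covered several estrous stages without proestrus, and the labels do not give the stage of each mouse. The use of 1 selected line limits the groups as a model of other mice. The labels name microdissected lateral septum in the protocol, and the methods describe the whole septum, so the medial part may be included.

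Values are PLIER intensities on a linear scale. Differences are lactating minus virgin on the log2 scale after 16 was added to each intensity, with the standard error (SE) of the limma fit over all clusters. Array medians lay between 319.6 and 339, and pairs of arrays correlated between 0.987 and 0.994 across clusters. The 9 septum markers, among them Zic1 and the inhibitory neuron genes Gad1, Gad2 and Slc32a1, were all measured, with 0 called between the groups, and 8 of them lay above the median cluster. The 3 measured striatal markers had a median difference of −0.20 (−0.23 to −0.13). The 5 measured cortical and hippocampal excitatory markers had one of 0.49 (−0.11 to 0.74). Of either list 0 were called, and the part of neighbouring tissue in the differences between the groups was not tested. The arrays measure pooled cells, so fewer cells of a type and less RNA per cell cannot be told apart. At an unadjusted p under 0.05, limma called 1160 of the 35556 clusters higher in lactating mice (3.26%) and 1668 lower (4.69%). That split depended on the scaling, with 2027 higher and 992 lower after each array's median was subtracted, 1300 and 1191 after quantile normalization and 1340 and 1129 after cyclic loess. After Benjamini-Hochberg adjustment over all clusters, 0 passed 0.05 in limma (0.0%), the lowest adjusted p being 0.0715, while 1 passed when linear intensities were fitted.

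Phka1 encodes the alpha subunit of phosphorylase kinase that predominates in muscle, and the gene lies on the X chromosome. Its intensity in lactating mice was 653 at the lowest, 728 at the median and 753 at the highest. In virgin mice it was 543 at the lowest, 616 at the median and 674 at the highest. The groups overlapped only through lactating mouse 6 at 653 and virgin mouse 4 at 674, and the other 5 lactating mice lay above all virgin mice. The means were 715 ± 37.6 and 612 ± 51.0 (SD, n = 6 each), a difference of 16.9% and of 0.22 (SE 0.0569) on the log2 scale. Under the 21 alternative settings tried, this difference stayed between 0.19 and 0.25.

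Phka2 encodes the other alpha subunit, which predominates in liver and is also X-linked. Lactating mice had a Phka2 intensity of 991 at the lowest, 1146 at the median and 1187 at the highest. Virgin mice spanned 1061 to 1170.2 around a median of 1100.4, inside the lactating range. The difference was 0.02 (SE 0.0468), and it turned to −0.01 under quantile normalization and under cyclic loess. The alpha paralogs thus stood at 0.22 and 0.02 on this scale, and whether these differ was not tested, since Phka1 was among the genes selected on its difference.

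Phkb, the shared regulatory beta subunit, ran from 972 through a median of 1041 to 1063 in lactating mice. Virgin mice ran from 921 through 1003 to 1057, and the groups overlapped over most of their range, with a difference of 0.05 (SE 0.0404). Phkg1 encodes the catalytic gamma subunit that predominates in muscle. It ran from 473 through 516 to 560.5 in lactating mice and from 479.6 through 526 to 594 in virgin mice, a difference of −0.04 (SE 0.0533). For Phka2, Phkb and Phkg1 at most 1 lactating mouse lay above all virgin mice.

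Pygb and Pygm encode the brain and muscle forms of glycogen phosphorylase, and astrocytes are known to contain both. Pygb intensities were 2993 at the lowest, 3299 at the median and 3402 at the highest in lactating mice. In virgin mice they were 3035, 3266 and 3361, so that the ranges nearly coincided, with a difference of 0.01 (SE 0.0438) that turned negative under quantile normalization and cyclic loess. Pygm intensities were 774 at the lowest, 811 at the median and 866 at the highest in lactating mice. In virgin mice they were 574 at the lowest, 763 at the median and 786 at the highest. The virgin spread came from mice 5 and 6 at 659 and 574, while the other virgin mice lay between 752 and 786. Of the 6 lactating mice, 5 lay above all virgin mice, and the log2 difference was 0.17 (SE 0.0721), or 0.11 without virgin mouse 6. The highest value, 866, belonged to lactating mouse 4, whose array also stood highest for markers of cortical and hippocampal excitatory neurons, 1.41 above the mean of all 12 mice on the log2 scale, and lowest for striatal markers, at −0.52. Without that mouse the Pygm difference was 0.16. After each group's mean was subtracted, Pygm had r = −0.12 with the cortical and hippocampal marker mean (permutation p = 0.585, adjusted p = 0.81). Its r with that mean was 0.91 within lactating and −0.90 within virgin mice, and with the striatal mean over all 12 mice it was −0.24. The part of neighbouring tissue in the Pygm difference was not tested.

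Gys1 encodes the glycogen synthase that is expressed in muscle and brain. Its intensity in lactating mice was 538 at the lowest, 606 at the median and 638 at the highest. In virgin mice it was 531 at the lowest, 546 at the median and 585 at the highest. Of the 6 lactating mice, 4 lay above all virgin mice, and lactating mice 1 and 2 lay inside the virgin range. The log2 difference was 0.12 (SE 0.0457), or 8.9% between the means. Gbe1, the branching enzyme, ran from 402 through 422 to 465 in lactating mice and from 344 through 385 to 459.6 in virgin mice. Virgin mice 3, 4 and 5 lay within the lactating range and the other 3 below it, and the difference was 0.13 (SE 0.0778). Ppp1r3c, also called PTG, tethers protein phosphatase 1 to glycogen. Its intensities ran from 778 through 821 to 889 in lactating mice and from 772 through 797 to 836 in virgin mice, a difference of 0.04 (SE 0.0407).

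**Figure D1:**
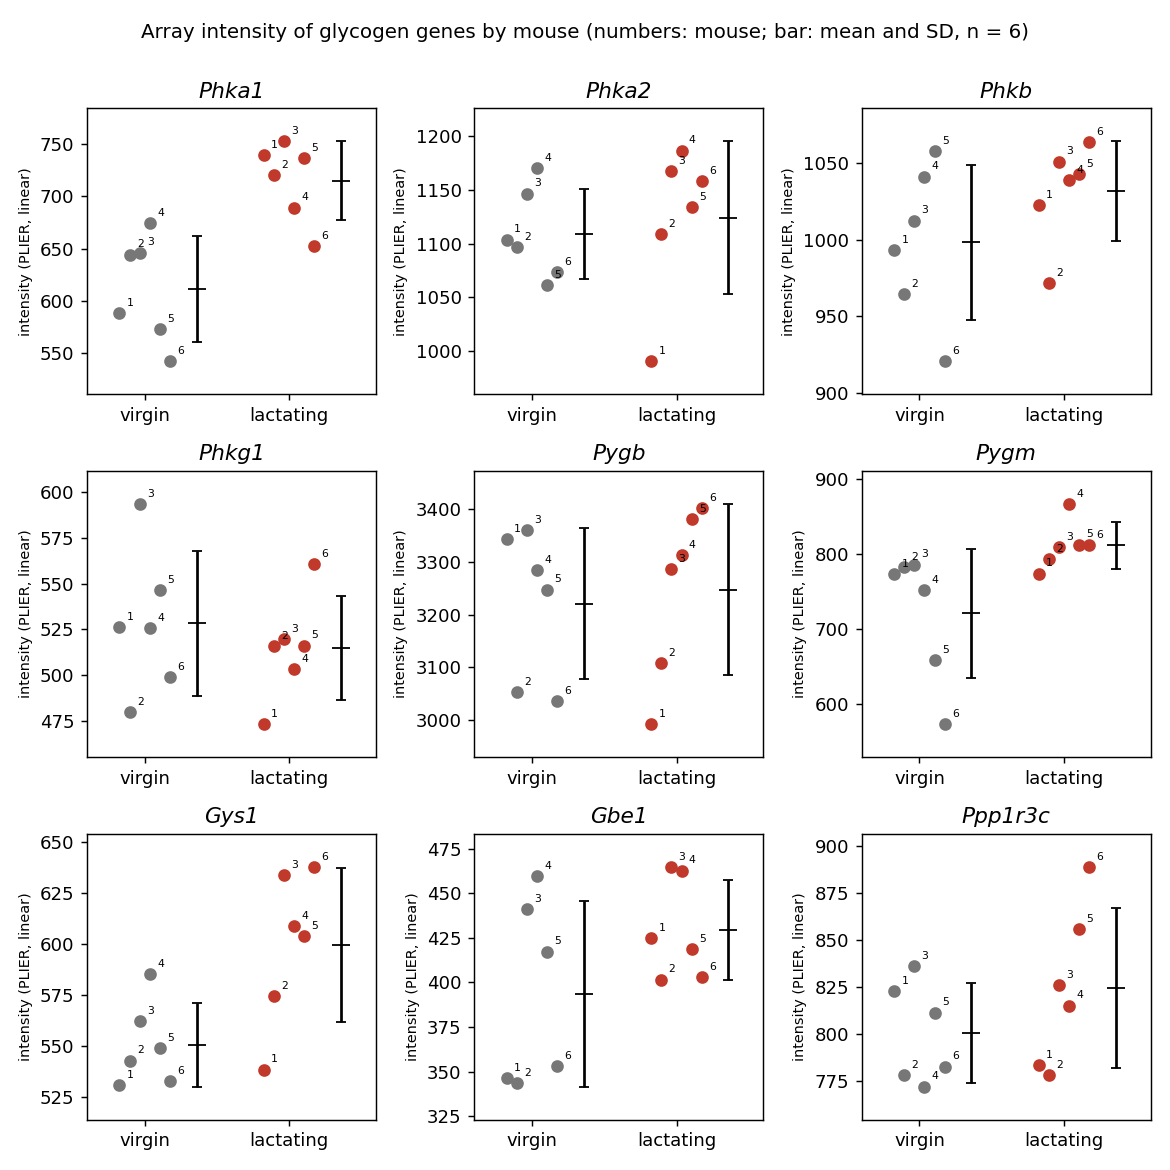
Intensity (vertical axis, linear PLIER units, not starting at 0) of the 9 glycogen genes in each of 6 virgin (grey) and 6 lactating (red) mice, numbered by mouse, with the mean and SD of each group as a black bar. For Phka1 and Pygm, 5 of 6 lactating mice lay above all virgin mice, and for Phka2, Phkg1 and Pygb the ranges of the groups largely overlapped.

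The median difference over the 9 members was 0.05, beside −0.01 over all clusters and 0.00 over the brightest cluster of each gene. Phka1, Pygm and Gys1 passed an unadjusted p under 0.05 in the fit over all clusters. That is 3 of 9 members higher and 0 lower, beside 3.26% and 4.69% of all clusters. All 9 members lay above the median intensity, and a fit of only the clusters above it called 1142 higher and 501 lower. That is nearly as many higher as the 1160 over all clusters, so 3.26% is a low yardstick for clusters this bright. As the members were selected on this contrast, the count of members is given without any reading. It was 2 without lactating mouse 3, 4 or 6 or virgin mouse 5, through the loss of Pygm or Gys1, and it was 4 without virgin mouse 4, when Gbe1 joined. No member passed an adjusted p under 0.05. Several members are the muscle forms of their enzymes, so skeletal muscle markers were examined. Of the 6 markers, Acta1, Ckm, Myh4, Myl1, Tnnt3 and Actn3, 0 were called, 3 lay below the median cluster, and their summed intensity was 1998 to 2194 in lactating and 2115 to 2344 in virgin mice. The 12 astrocyte markers had 2 called higher, Gjb6 at 0.22 and Fgfr3 at 0.20, and 1 lower, Slc4a4 at −0.08. Fgfr3 is in the study's own list from these arrays, so its call is no independent evidence. The sums of the 12 markers, to which the brightest add most, were 42062.5 to 44787 in lactating and 41202.7 to 43967 in virgin mice.

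The sequence upstream of the gene start is shown for the members whose values separated the groups most, Phka1, Pygm and Gys1, and for Phka2, the paralog of Phka1. The 250 bases before each start are from RefSeq on the mouse build GRCm38.p6, which is not the annotation of the array, and all 9 members matched. They lie at chrX:102644247-102644496 on the minus strand for Phka1, at chrX:160501912-160502161 on the plus strand for Phka2, at chr19:6384158-6384407 on the plus strand for Pygm and at chr7:45434589-45434838 on the plus strand for Gys1. Capitals mark matches on either strand to GGGCGG, the core of the GC box bound by Sp1-type factors, to CCAAT and to the E-box CACGTG, and no one of these motifs contains another.
Phka1: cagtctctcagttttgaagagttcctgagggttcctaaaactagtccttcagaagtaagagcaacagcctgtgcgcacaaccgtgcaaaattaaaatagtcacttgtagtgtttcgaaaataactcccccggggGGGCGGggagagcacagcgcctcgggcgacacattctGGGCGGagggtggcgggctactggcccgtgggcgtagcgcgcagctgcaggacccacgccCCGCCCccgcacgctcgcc
Phka2: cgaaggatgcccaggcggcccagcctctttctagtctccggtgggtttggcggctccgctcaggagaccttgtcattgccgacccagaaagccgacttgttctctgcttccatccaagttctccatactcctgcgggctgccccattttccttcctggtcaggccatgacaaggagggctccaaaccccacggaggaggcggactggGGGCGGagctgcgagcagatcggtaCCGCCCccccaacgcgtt
Pygm: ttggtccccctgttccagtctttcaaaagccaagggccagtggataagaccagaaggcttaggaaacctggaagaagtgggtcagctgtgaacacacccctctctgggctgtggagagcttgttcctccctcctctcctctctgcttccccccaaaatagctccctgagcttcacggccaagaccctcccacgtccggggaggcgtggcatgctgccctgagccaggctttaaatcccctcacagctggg
Gys1: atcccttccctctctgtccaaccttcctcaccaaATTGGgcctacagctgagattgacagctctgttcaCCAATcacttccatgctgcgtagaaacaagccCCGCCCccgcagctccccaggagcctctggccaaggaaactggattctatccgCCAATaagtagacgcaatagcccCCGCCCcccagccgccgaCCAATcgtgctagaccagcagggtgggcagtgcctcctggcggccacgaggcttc

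In these windows Phka1 held 3 GC boxes and Phka2 held 2, and neither held another of the motifs. Pygm held none of them. Gys1 held 2 GC boxes and 4 CCAAT boxes. Among the members not printed, Phkb held 2 GC boxes, Phkg1 held 2 CCAAT boxes, Ppp1r3c held 1 CCAAT box and the only E-box, and Pygb and Gbe1 held none. At least 1 GC box was found in 32.7%, at least 1 CCAAT box in 33.8% and at least 1 E-box in 6.02% of 32851 promoter windows of the same length. A match describes the letters only.

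The other genes of the pathway were taken from a list of 29, of which 26 were measured under a single symbol. At an unadjusted p under 0.05, limma called 0 of the 26 higher and 0 lower, beside 3.26% and 4.69% of all clusters, and 0 passed after adjustment. By the exact permutation test, 1 of them, Ppp1cc, had a p under 0.05. That test was not run over all clusters, so no share can be set beside this count. Their median difference was 0.00 and their range −0.08 to 0.30. Pygl, the liver phosphorylase, was 247 ± 12.4 in lactating and 257 ± 9.64 in virgin mice (SD, n = 6 each), a difference of −0.06 (SE 0.0404). Phkg2, the gamma subunit of liver and testis, was 1749 ± 96.0 against 1788 ± 87.7, a difference of −0.03 (SE 0.0463). Gys2, the liver synthase, was dim, at 89.8 ± 5.78 against 96.0 ± 6.86, a difference of −0.08 (SE 0.0501). Pygl, Phkg2 and Gys2 each had a lactating mean below the virgin mean, and none passed the test. Under quantile normalization the differences were −0.02 for Pygl, −0.05 for Phkg2 and −0.04 for Gys2.

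Among the remaining pathway genes, a pair is given because of its values and was chosen after these were seen. Epm2a encodes laforin, the glycogen phosphatase that is mutated in Lafora disease. It had the largest difference of the 26, 0.30 (SE 0.195). Leaving out 1 mouse gave 0.18 (without lactating mouse 6) to 0.40 (without lactating mouse 2). Intensities were 836 ± 254 in lactating and 664 ± 147 in virgin mice (SD, n = 6 each). Epm2a did not pass the test (limma, unadjusted p = 0.152, and exact permutation p = 0.208). Ppp1cc, a catalytic subunit of protein phosphatase 1, has 2 clusters on the array, and the brighter is given. It was 4597 ± 132 against 4345 ± 239.7, a difference of 0.08 (SE 0.0422). Its limma p was 0.073 unadjusted and its exact permutation p 0.0281, and it was called higher on linear intensities, after median subtraction and with a variance trend.

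The 18 measured genes of a list of 19 that handle glucose, glucose 6-phosphate and lactate had a median difference of 0.04. At an unadjusted p under 0.05, 1 was called higher and 1 lower by limma, beside 3.26% and 4.69% of all clusters, and none passed after adjustment over all clusters. Slc2a1 encodes the glucose transporter of the blood-brain barrier and astrocytes. It was 3606 at the lowest, 3865 at the median and 4034 at the highest in lactating mice, and 3077, 3435 and 3680.0 in virgin mice. Of 6 lactating mice, 5 lay above all virgin mice, with a difference of 0.18 (SE 0.0502; limma, unadjusted p = 0.00355, adjusted p = 0.619; exact permutation p = 0.00649). Slc2a1 is in the study's own list from these arrays, so this is no independent evidence of its direction. Slc16a1 encodes the monocarboxylate transporter MCT1, which carries lactate. It was 615 at the lowest, 755 at the median and 906 at the highest in lactating mice, and 775, 893 and 961 in virgin mice. Of 6 lactating mice, 4 lay below all virgin mice, with a difference of −0.22 (SE 0.0781; limma, unadjusted p = 0.0137, adjusted p = 0.619; exact permutation p = 0.0238). The glycolytic genes of the list, among them the hexokinases Hk1 and Hk2, the phosphofructokinases Pfkm, Pfkl and Pfkp and the lactate dehydrogenases Ldha and Ldhb, did not pass the test.

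**Figure D2:**
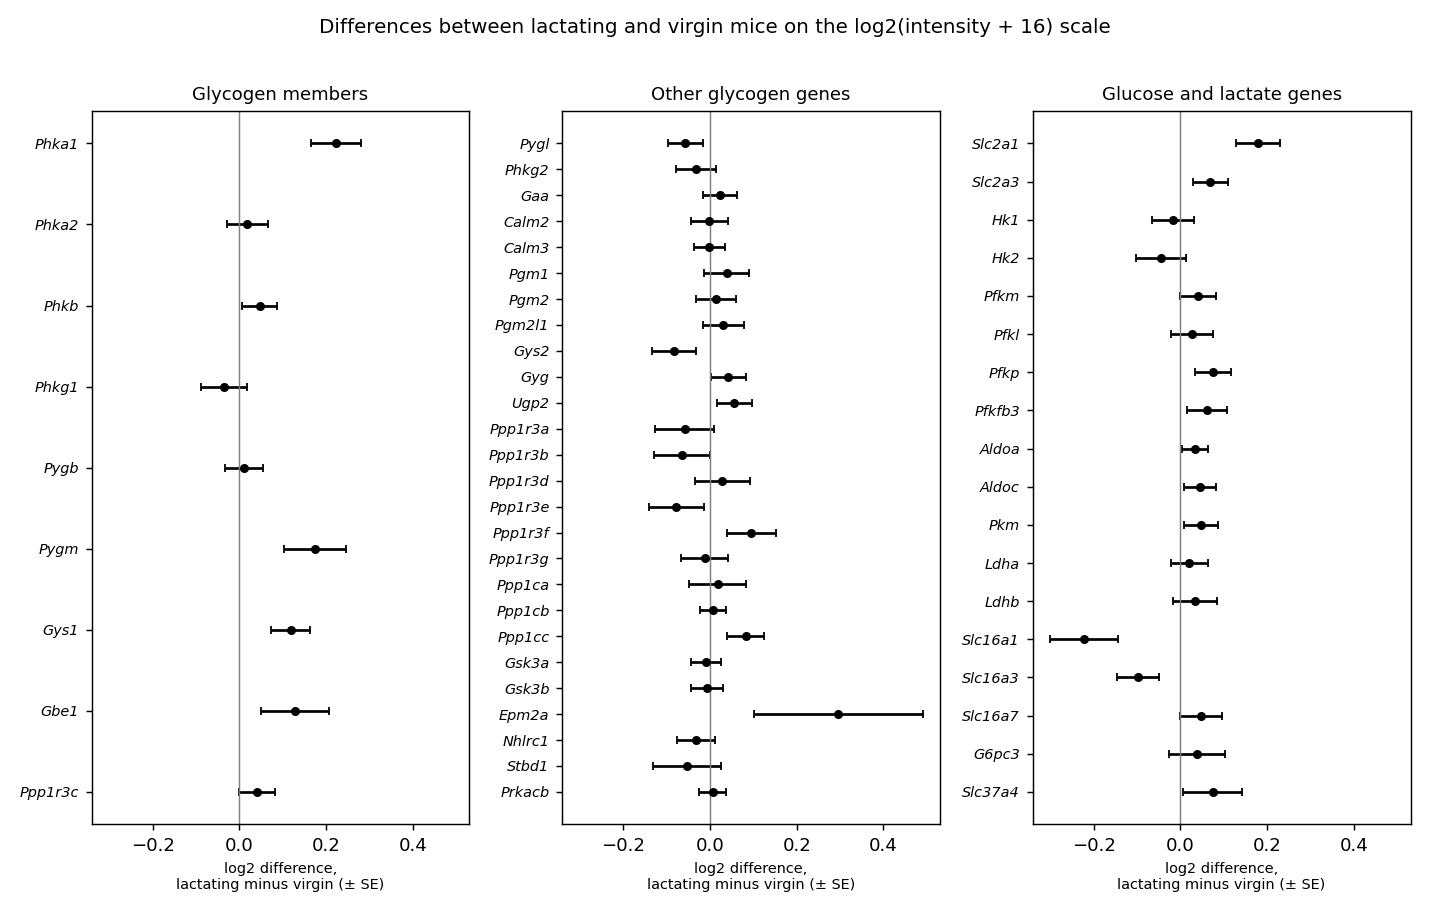
Difference between lactating and virgin mice (horizontal axis, log2 of intensity plus 16) with its SE for the 9 members, 26 other glycogen genes and 18 glucose and lactate genes, in 1 panel each. Phka1 lay at 0.22, Pygm at 0.17 and Gys1 at 0.12 among the members, Epm2a at 0.30 with a wide error among the other glycogen genes, and Slc2a1 and Slc16a1 on opposite sides of 0 among the glucose and lactate genes.

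Whether the members varied together between mice of the same group was asked after each group's mean had been subtracted, which removes the contrast that selected them. The 12 points of each relation come from the same 12 RNA samples and arrays, so a shared property of a sample enters every gene. Phka1 was set against the 8 other members. The highest value was with Pygm (Pearson r = 0.59, permutation p = 0.102, adjusted p = 0.769; Spearman rho = 0.55, permutation p = 0.146, adjusted p = 0.755, n = 12). Without virgin mouse 6 and lactating mouse 6, the mice farthest from the Phka1 median, r with Pygm was 0.31. It was 0.26 without virgin mouse 6 alone and 0.66 without lactating mouse 6 alone, so the relation leaned on virgin mouse 6. With Gbe1, r was 0.46 (permutation p = 0.192, adjusted p = 0.769; rho = 0.44, permutation p = 0.222, adjusted p = 0.755), or 0.28 without both of those mice. With the remaining 6 members r lay between −0.31 for Ppp1r3c and 0.22 for Phkb. Over the 8 relations, 0 passed an adjusted p under 0.05 by either measure.

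The members other than Phka1 were then set against each other, 28 relations that were added after the values had been seen. All 28 correlations were above 0, from 0.02 for Ppp1r3c with Gbe1 to 0.88 for Gys1 with Phka2, with a median of 0.50. Over the pairs of 12646 single-symbol clusters brighter than the median cluster, the median was 0.10 and 59.5% were above 0. These are descriptions, since pairs that share a gene are not independent.

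The highest, Gys1 with Phka2, had r = 0.88 (permutation p = 0.00155, adjusted p = 0.0345) and rho = 0.78 (permutation p = 0.00598, adjusted p = 0.0558), and r = 0.77 without the 2 mice farthest from the median. Both genes were lowest in lactating mouse 1 relative to the group, at −0.15 and −0.18. Ppp1r3c with Pygb had r = 0.80 (permutation p = 0.00493, adjusted p = 0.0345) and rho = 0.83 (permutation p = 0.00344, adjusted p = 0.0558), and r = 0.79 without the farthest mice. Pygb with Phkg1 had r = 0.77 (permutation p = 0.0041, adjusted p = 0.0345) and rho = 0.71 (permutation p = 0.0163, adjusted p = 0.0912), and r = 0.66 without them. Ppp1r3c with Phkg1 had r = 0.73 (permutation p = 0.00448, adjusted p = 0.0345) and rho = 0.72 (permutation p = 0.0111, adjusted p = 0.0778), and r = 0.78 without them. These 4 of 28 relations passed the adjusted p by Pearson's r, and 0 of 28 did by Spearman's rho. The 28 relations were computed under the main scaling only.

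**Figure D3:**
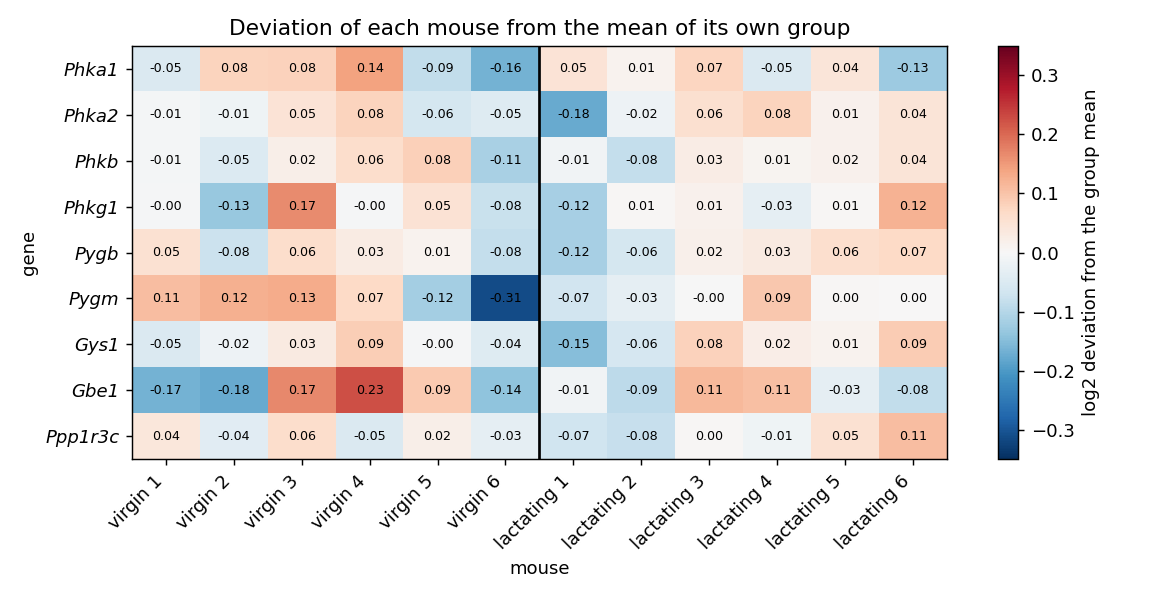
Log2 deviation of each gene (rows) in each mouse (columns) from the mean of the mouse's own group, blue below and red above. Lactating mouse 1 was low for Phka2, Phkg1, Pygb and Gys1, lactating mouse 6 was high for Phkg1, Gys1 and Ppp1r3c and low for Phka1, and virgin mouse 6 was low for Pygm at −0.31.

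**Figure D4:**
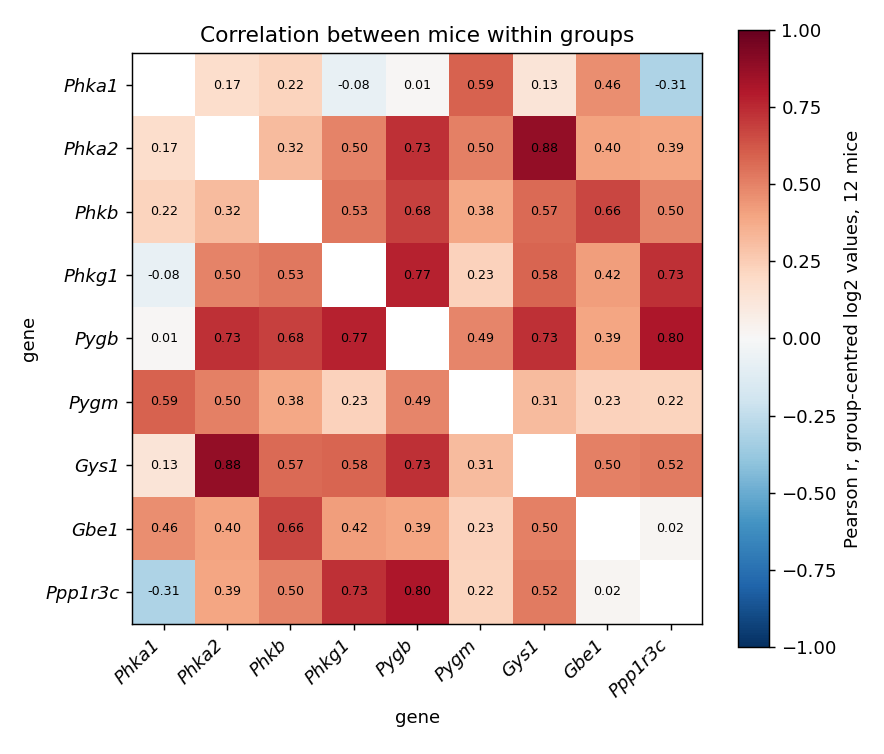
Pearson r between the genes over 12 mice after each group's mean was subtracted, on a scale from −1 to 1. The Phka1 row holds values from −0.31 to 0.59, and the cells between the other 8 genes are all above 0, up to 0.88 for Gys1 with Phka2.

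Oligodendrocyte markers also varied between the mice. The mean of the 5 measured markers relative to all 12 mice was lowest in lactating mouse 1, at −0.26 on the log2 scale, and highest in lactating mice 5 and 6, at 0.25 and 0.33, while virgin mouse 6, which was low for Pygm, stood at 0.01. The summed intensity ran from 12597 to 18369 in lactating and from 14098 to 16277 in virgin mice. Against the astrocyte, oligodendrocyte, striatal and cortical marker means, again with each group's mean subtracted, 36 relations of the 9 members were computed, also after the values were seen. The highest was Ppp1r3c with the oligodendrocyte mean (r = 0.82, permutation p = 0.00442, adjusted p = 0.0796; rho = 0.73, permutation p = 0.0163, adjusted p = 0.359), with r = 0.66 without the farthest mice. Phkg1 had r = 0.63 with the same mean (permutation p = 0.00433, adjusted p = 0.0796; rho = 0.52, permutation p = 0.0594, adjusted p = 0.428), and r = 0.64 without them. Gbe1 ran opposite to the striatal mean (r = −0.59, permutation p = 0.00803, adjusted p = 0.0964; rho = −0.60, permutation p = 0.0199, adjusted p = 0.359), with r = −0.64 without them. Pygb had r = 0.63 with the oligodendrocyte mean (permutation p = 0.043, adjusted p = 0.387) and rho = 0.62 (permutation p = 0.0471, adjusted p = 0.428). Without the farthest mice its r was 0.51. Of the 36 relations 0 passed an adjusted p under 0.05, and the part of the makeup of the tissue in the relations between members was not tested.

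The clusters most like Phka1 across the mice after group means were subtracted were Ctu1 (r = 0.92), Amotl1 (0.91), Ntn4 (0.91), Klf12 (0.90) and Ccdc174 (0.90), of 12645 candidate clusters and over 12 mice. Ctu1 acts in the thiolation of transfer RNA, Amotl1 is an angiomotin-like protein of cell junctions, Ntn4 is a secreted netrin and Klf12 is a zinc finger transcription factor. They are given as a description, with no p, since they are the top of a ranking. Among the members Pygm came closest to Phka1 at rank 964, followed by Gbe1 at rank 2162, and Ppp1r3c stood at rank 11538.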

How the data were processed

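Septum RNA of 12 mice was measured on Mouse Gene 1.0 ST arrays. The authors summarised and normalized the probes by PLIER, correcting the background within GC bins, in Affymetrix Power Tools 1.12.0, and the deposited values are intensities on a linear scale. The genome build of the array annotation is not given in the sources used here. Groups and mouse numbers were taken from the titles. The methods state that RNA was extracted in matched pairs, without naming the mice of each pair in the sources used here.

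From the deposited intensities, log2 of the value plus 16 was computed, and lactating mice were compared with virgin mice in limma 3.58.1 under R 4.3.3 (lmFit and eBayes, two-sided, no covariate) over all 35556 clusters with Benjamini-Hochberg adjustment. Single genes outside the members also had a two-sided exact permutation test over 924 assignments, whose smallest p is 0.00216. Correlations used 100000 permutations of mice within groups, two-sided, in scipy 1.17.1, with adjustment within each family, and exact enumeration within single groups. For lists, the cluster with the highest mean was used for each gene. The members and lists were chosen with earlier results of these data known. Named are all members, genes of the glycogen and glucose lists at an unadjusted p under 0.05 with Pygl, Gys2, Phkg2 and Slc2a1, and the 5 clusters most like Phka1. An item of the naming rule is not reported here. Epm2a, Ppp1cc, Slc16a3, Alas2, the called astrocyte markers and genes called only under an alternative setting were named after their values were seen. Alternatives were other scalings, an offset of 1, linear intensities, an intensity filter, array weights, a variance trend, a replicate block and leaving out each mouse. The number of arrays, 12, limits the precision.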

Additional observations from a re-analysis of the deposited data

Results flagged for a closer look

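In 40 groups of 6 mice, the 20 genes given individual attention in each state, the gap between the most distant mouse and its nearest neighbour was set against the range of the group. In 0 of the 40 did it pass Dixon's critical value, which chance alone passes in about 1 in 20 groups.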

How the results depend on the processing

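Over the 21 alternatives the Phka1 difference, a description since the gene was selected on it, lay between 0.19 and 0.25. With mouse number as a replicate block the Phka1 difference was 0.22, 4 members were called (Gbe1 joined) and 3194 clusters were called in place of 2828, and the block changed no call in the glycogen and glucose lists. Same-numbered mice had residual correlations above 0.1 for 2 of 6 numbers, up to 0.25. Mice of different numbers were not compared, so these values cannot show whether the numbers mark pairs. The labels do not say, and the main fit left the numbers out. Leaving out 1 mouse gave 2 to 4 called members, 0 to 1 other glycogen genes, 2 to 4 glucose and lactate genes and 1864 to 4058 clusters, and Phka1 differences of 0.19 to 0.25. The other glycogen genes had 1 call, Ppp1cc, after median subtraction, on linear intensities and with a variance trend, and 1, Ugp2, without virgin mouse 3. The 4 glucose and lactate calls came without lactating mouse 1, where Pfkp and Slc37a4 joined Slc2a1 and Slc16a1. Pfkp was also called higher on linear intensities. Restricting the fit to clusters above the median intensity called 1643 clusters, 1142 higher and 501 lower. The fit over all clusters called 1160 higher and 1668 lower. Pygm was not called without lactating mouse 4 or virgin mouse 5, nor Gys1 without lactating mouse 3 or 6. The number of Phka1 correlations past the adjusted threshold was 0 in all 15 alternatives. The limma fit on linear intensities called 1 cluster at an adjusted p under 0.05 and the log2 fit 0. No called value changed sign. The causes of these shifts were not tested. Signal over background was not given per probe, so dim genes such as Gys2 are the least certain, and splice forms of a gene share 1 cluster.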

Other observations

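Within each state, Phka1 was also set against the other 8 members, 16 relations over 6 mice each that were computed after the values were seen. In virgin mice the highest were with Phka2 (r = 0.85, exact permutation p = 0.0389, adjusted p = 0.311; rho = 0.89, exact p = 0.0333, adjusted p = 0.533) and with Pygm (r = 0.82, exact permutation p = 0.0319, adjusted p = 0.311; rho = 0.66, exact p = 0.175, adjusted p = 0.711). Without the 2 farthest mice these were 0.74 and 0.76. In lactating mice the same pairs had r = −0.39 (exact permutation p = 0.425, adjusted p = 0.578; rho = −0.26, exact p = 0.658, adjusted p = 0.803) and r = −0.43 (exact permutation p = 0.388, adjusted p = 0.578; rho = −0.49, exact p = 0.356, adjusted p = 0.711), and without the 2 farthest mice they were 0.19 and 0.28, so the negative values rest on those mice. Of the 16 relations 0 passed an adjusted p under 0.05, and the difference between the states was not tested.

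Slc16a3, which encodes the lactate transporter MCT4, is given after its values were seen. Its intensity was 529 ± 24.8 in lactating and 568 ± 37.8 in virgin mice (SD, n = 6 each), a difference of −0.10 (SE 0.0485; limma, unadjusted p = 0.0637; exact permutation p = 0.0693). It was called lower without lactating mouse 5 or virgin mouse 4 or 5. Alas2, an enzyme of heme synthesis in red cell precursors, was the only blood marker measured and was called higher in lactating mice, with a difference of 0.31 (limma, unadjusted p = 0.018, adjusted p = 0.619).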
